A study of Homo sapiens with 6 samples.

Results

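The kinesin genes described here are the 42 rows of the deposited gene tables, of 62754 in all, whose gene name is KIF followed by a number, with or without a letter, or KIFC followed by a number. Kinesins that carry other names, such as CENPE, are therefore not among them and are given as partners. The 42 genes were divided by known function into 15 mitotic, 15 transport and 12 other kinesins. The samples were 6 RNA-seq libraries of HUDEP-2 cells: 3 transduced with a lentiviral short hairpin RNA (shRNA) against MEN1 and 3 with a non-targeting control shRNA. MEN1 encodes menin, a scaffold protein of MLL histone methyltransferase complexes. HUDEP-2 is an erythroid progenitor line made from human cord blood and immortalised by doxycycline-inducible HPV E6 and E7, which act on p53 and RB. Both groups were grown with erythropoietin (3 units per ml), stem cell factor (50 ng per ml), dexamethasone (1e-06 M) and doxycycline (1 µg per ml). Puromycin at 2 µg per ml was added 24 h after transduction and kept for 48 h, and the libraries represent cells at 72 h. The design has 1 cell line and 1 MEN1 hairpin (sh2), so effects of menin loss and effects of that hairpin on other transcripts cannot be told apart.

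Kinesins are motor proteins that turn ATP hydrolysis into movement along microtubules or into microtubule disassembly. Mitotic kinesins build the spindle, move chromosomes and organise the midzone at which a dividing cell is cut in 2, and their transcripts usually peak in G2 and M phase. Transport kinesins carry mitochondria, lysosomes and vesicles, mostly through light chains and adaptor proteins that join the motor to its cargo. Maturing erythroblasts divide a limited number of times, and then clear their organelles and expel the nucleus.

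Levels are given in TPM, a measure of transcript abundance that corrects for transcript length and is scaled to the same total in every library. MEN1 measured 6.29, 6.44 and 6.88 TPM with its hairpin and 41.2, 39.6 and 37.1 TPM with the control hairpin, which was 16.6% of the control mean. The libraries held about 18400000 to 35800000 read pairs, and 13865 to 14361 genes reached 1 TPM. MEN1 shRNA replicate 1 was nearer to the controls (mean correlation 0.953) than replicates 2 and 3 (0.936 and 0.934). All 11 erythroid markers were detected. With MEN1 shRNA 7 of them rose and 0 fell, while GATA1, KLF1, EPOR and ANK1 did not pass the threshold given below. The share called was 63.6%, beside 53.6% of all genes tested (22.1% higher and 31.5% lower). The markers' summed level was 76017 to 83758 TPM with MEN1 shRNA and 45504 to 49644 TPM in controls. Most of that sum was HBB (50171 TPM with MEN1 shRNA, 30237 TPM in controls) and HBA1 (23556 and 12208 TPM), both globin genes. The HBB call held in 11 of 15 other settings. Globin transcripts took 9.21 to 10.4% of all TPM with MEN1 shRNA and 5.23 to 5.78% in controls.

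Of the 42 kinesin genes, 30 were measured well enough to be tested, with at least 1 TPM in at least 3 libraries. With MEN1 shRNA 13 of them rose, 4 fell and 13 did not pass the threshold of an adjusted p under 0.05 (limma on log2(TPM + 1), Benjamini-Hochberg over all genes tested). The MEN1 hairpin was followed by widespread change: 53.6% of the 14294 genes tested passed the same threshold, 22.1% higher and 31.5% lower. The share of tested kinesins that passed, 56.7%, was close to that background. Their median log2 fold change was 0.12, beside -0.07 for all genes tested. The groups' libraries did not overlap for 21 of the 30 genes, 15 higher and 6 lower. Over all genes tested 61.8% did not overlap, 25.8% higher and 35.9% lower.

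**Figure D1:**
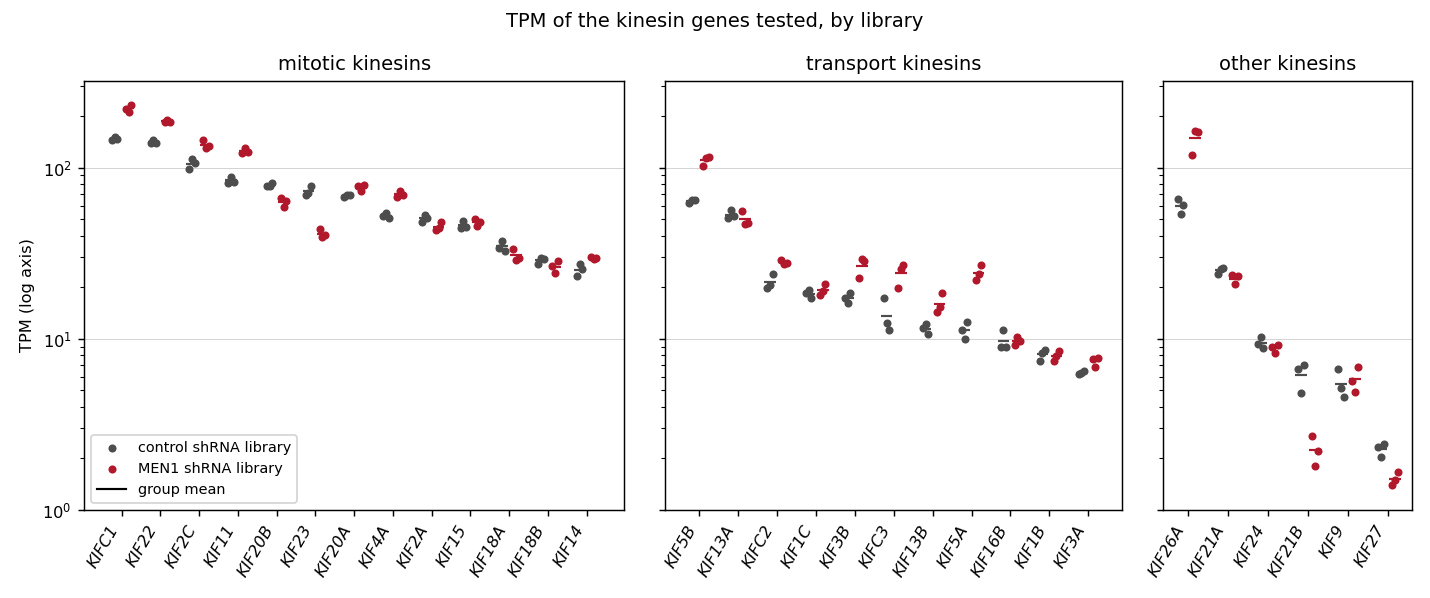
TPM of the 30 tested kinesin genes in each of the 6 libraries, on a log axis, in 3 panels by class; grey points are control shRNA libraries, red points MEN1 shRNA libraries and short lines group means. KIFC1 and KIF22 lie highest, the red points of KIF23 lie below its grey points, and those of KIF5B and KIF26A lie above theirs.

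Summed over its 15 genes, the mitotic class measured 1109, 1079 and 1112 TPM with MEN1 shRNA and 907, 962 and 935 TPM in controls. The transport class measured 308, 325 and 338 TPM against 232, 238 and 237 TPM. The other kinesins measured 160.4, 202 and 205 TPM against 114, 102 and 109 TPM. In each class the lowest MEN1 shRNA library lay above the highest control. The ratio of the group means was 1.18 for the mitotic, 1.37 for the transport and 1.74 for the other class. Single genes weighed heavily on the last of these values: without KIF26A the other kinesins gave a ratio of 0.844, and without KIF5B the transport class gave 1.25. Mitotic genes made up 73.1% ± 0.758 of kinesin TPM in controls and 68.2% ± 1.80 with MEN1 shRNA (SD, n = 3). The kinesin total includes KIF26A, at 59.7 ± 5.97 TPM in controls and 148 ± 26.3 TPM with MEN1 shRNA. That 1 gene therefore weighs on the mitotic share too, and the share without it was not computed. These are bulk samples, so a changed share of cells in a phase or state and a changed amount of RNA per cell cannot be told apart.

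**Figure D2:**
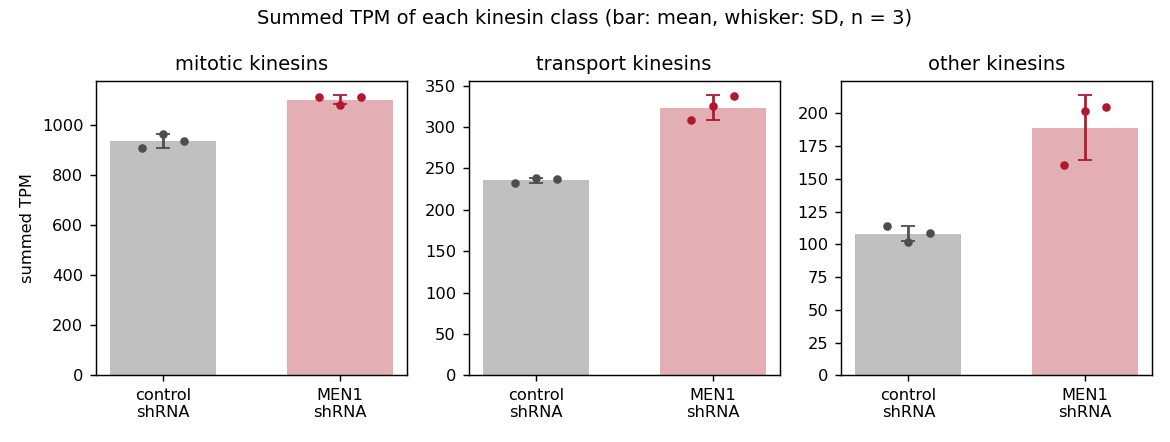
Summed TPM of the mitotic, transport and other kinesin genes; bars are means from 0, whiskers the SD over 3 libraries and points single libraries. The transport bars stand at 236 (control) and 324 (MEN1 shRNA) TPM, and the point of MEN1 shRNA replicate 1 in the other class, 160.4 TPM, lies below those of replicates 2 and 3.

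The mitotic kinesins did not move as 1 group after the MEN1 hairpin. Of the 13 mitotic genes tested, 6 rose (KIFC1, KIF11, KIF4A, KIF22, KIF2C and KIF14), 2 fell (KIF23 and KIF20B) and 5 did not pass, so that 61.5% were called, beside 53.6% of all genes tested. The median log2 fold change of the class was 0.16. The changes were modest, and no mitotic kinesin reached a 2-fold difference. Of all 14294 genes tested, 1696 passed the threshold with a difference of at least 2-fold.

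KIFC1, a minus-end-directed motor that bundles microtubules and focuses spindle poles, had the highest level of any kinesin in both groups. Its gene (ENSG00000237649) lies on chromosome 6, positions 33391823 to 33409896 of hg38, plus strand. It measured 219.7, 212 and 232 TPM with MEN1 shRNA and 144, 149.9 and 147 TPM in controls. The groups did not overlap and differed by 0.59 on the log2 scale (SE 0.0548, adjusted p = 0.000118). KIF11, the motor that slides antiparallel microtubules to push the spindle poles apart, lies on chromosome 10 at 92574105 to 92655395 (ENSG00000138160, plus strand). It measured 122, 130.4 and 124 TPM against 81.5, 88.0 and 82.6 TPM in controls, again without overlap. KIF11 rose by 0.57 on the log2 scale (SE 0.0585, adjusted p = 0.00017). These motors oppose each other in the bipolar spindle, KIF11 pushing outward and KIFC1 pulling inward, and the 95% intervals of their log2 fold changes were 0.44 to 0.71 and 0.46 to 0.72.

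The chromokinesins KIF22 and KIF4A bind chromosome arms and move them away from the poles. KIF22, on chromosome 16 at 29790727 to 29805385, measured 184, 189 and 185 TPM with MEN1 shRNA and 139, 145 and 139 TPM in controls. Its libraries were tightly grouped, and the gene rose by 0.40 (SE 0.05, adjusted p = 0.000427). KIF4A, which also works with PRC1 to set the length of the midzone, lies on the X chromosome at 70290104 to 70420886. It measured 67.6, 73.4 and 68.7 TPM against 51.8, 54.0 and 50.6 TPM in controls (log2 fold change 0.41, SE 0.0617, adjusted p = 0.000955). KIF4B, a near-identical intronless copy of KIF4A on chromosome 5, had 0.367 to 0.967 TPM, too little to be tested, and reads shared between the copies could have been split. KIF2C disassembles microtubules at centromeres and so removes faulty attachments. It measured 144, 129.7 and 134 TPM with MEN1 shRNA and 98.1, 112 and 106 TPM in controls, with no overlap (log2 fold change 0.37, SE 0.0698, adjusted p = 0.00323).

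KIF14, which acts with citron kinase in cytokinesis, measured 30.2, 29.1 and 29.5 TPM with MEN1 shRNA and 23.1, 27.2 and 25.4 TPM in controls. Its libraries did not overlap, but the control libraries spread more widely and the log2 fold change of 0.23 (SE 0.0785) had an adjusted p of 0.0421. That call was near the threshold and held in 8 of 16 other settings. With single libraries left out, the log2 fold change was 0.17 to 0.28. The call was lost without MEN1 shRNA replicate 1 (adjusted p = 0.083), replicate 2 (0.0836) or replicate 3 (0.0904). It was also lost without control replicate 1 (0.121) or replicate 3 (0.0889).

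KIF23, which pairs with RACGAP1 in centralspindlin, the complex that bundles midzone microtubules and anchors the cleavage furrow, moved in the opposite direction. The gene (ENSG00000137807) lies on chromosome 15, positions 69414246 to 69448427, plus strand. It measured 43.9, 39.3 and 40.1 TPM with MEN1 shRNA and 69.0, 70.7 and 77.9 TPM in controls. The highest MEN1 shRNA library was far below the lowest control, and the mean was 56.7% of the control mean (log2 fold change -0.80, SE 0.0744, adjusted p = 0.000115). KIF20B, a motor of the same kinesin-6 family that works late in cytokinesis, lies on chromosome 10 at 89701590 to 89774939. It measured 66.2, 59.0 and 63.9 TPM against 77.7, 77.7 and 80.9 TPM in controls. The groups did not overlap, and KIF20B fell by 0.32 on the log2 scale (SE 0.0635, adjusted p = 0.00394).

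KIF20A, the kinesin-6 motor that brings the chromosomal passenger complex to the midzone, measured 78.0, 72.5 and 78.6 TPM with MEN1 shRNA and 67.4, 69.2 and 68.8 TPM in controls. All MEN1 shRNA libraries lay above the controls, but the adjusted p was 0.0547 (log2 fold change 0.16, SE 0.058), and it was 0.0467 without MEN1 shRNA replicate 2. KIF15, which helps KIF11 to keep poles apart, measured 50.0, 45.6 and 47.8 TPM against 44.6, 48.7 and 44.7 TPM (95% interval of the log2 fold change -0.10 to 0.21, adjusted p = 0.53). The groups overlapped.

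KIF18A, which damps the swings of chromosomes at metaphase, measured 33.3, 28.9 and 29.8 TPM with MEN1 shRNA and 34.1, 37.4 and 32.5 TPM in controls. The groups overlapped (interval -0.37 to 0.02, adjusted p = 0.124). KIF18B, a depolymerase of astral microtubules, measured 26.6, 24.2 and 28.3 TPM against 27.5, 29.7 and 29.4 TPM, again with overlap (interval -0.32 to 0.06, adjusted p = 0.223). KIF2A, a depolymerase at spindle poles that also works outside mitosis, measured 43, 44.1 and 48.2 TPM against 48.3, 52.6 and 50.6 TPM. Its highest MEN1 shRNA library was just under the lowest control (log2 fold change -0.16, adjusted p = 0.0888). The remaining mitotic gene, KIF2B, was listed at 0 in every library.

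**Figure D3:**
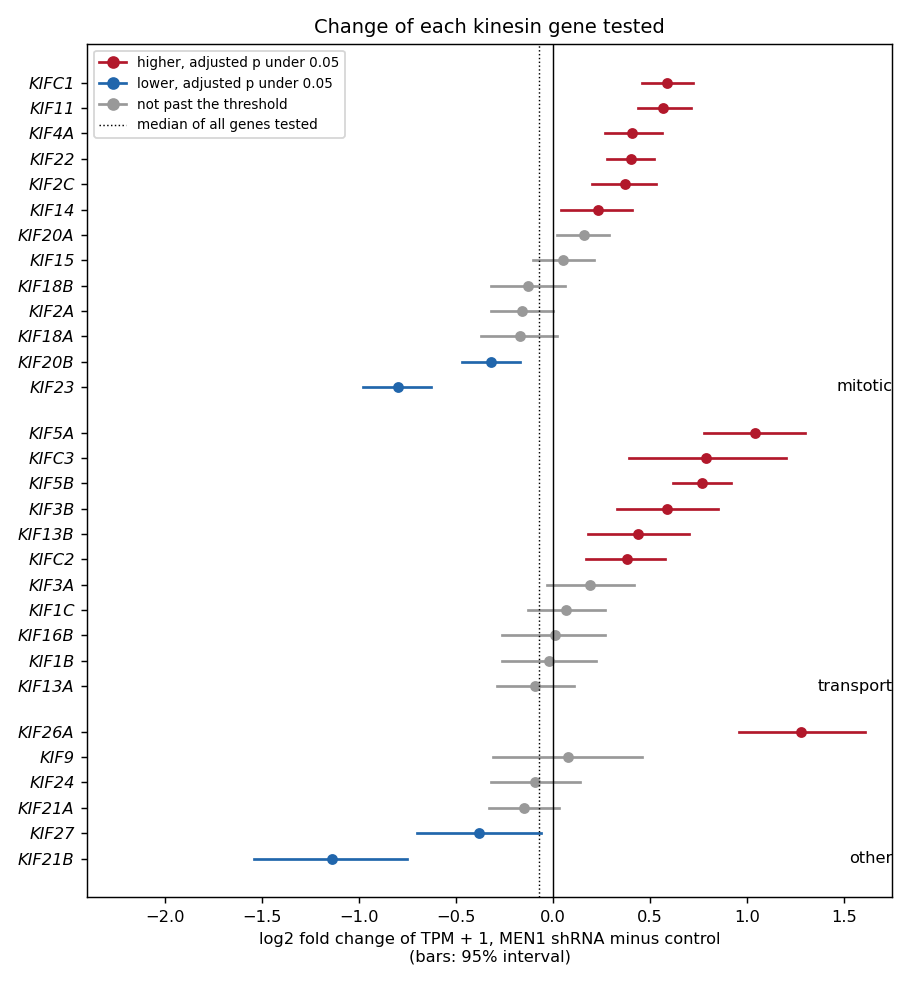
Log2 fold change of TPM + 1 (MEN1 shRNA minus control) for each tested kinesin, grouped by class; points are estimates, bars 95% intervals, red and blue the genes past the threshold and the dotted line the median of all genes tested, -0.07. KIF23 (-0.80) and KIF20B (-0.32) are the mitotic genes past the threshold on the lower side, whereas no transport kinesin passed on that side.

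The promoters of 5 kinesins are shown because they let the risers be compared with the fallers: the 2 mitotic risers with the lowest adjusted p, both mitotic fallers and the transport riser with the lowest adjusted p. Many G2 and M phase genes carry a cell cycle genes homology region (CHR), the letters TTTGAA or TTCGAA, bound by the DREAM and MYBL2-MuvB complexes, and an upstream CCAAT box bound by NF-Y. Each sequence is the RefSeq window on GRCh38.p14 from 250 bases before to 50 bases after the annotated start, read 5′ to 3′ on the gene's strand. Capitals mark CHR letters and CCAAT boxes, on either strand. The windows are KIFC1 (chr6:33391573-33391872, plus), KIF11 (chr10:92592880-92593179, plus), KIF23 (chr15:69414099-69414398, plus), KIF20B (chr10:89701340-89701639, plus) and KIF5B (chr10:32056376-32056675, minus).
KIFC1: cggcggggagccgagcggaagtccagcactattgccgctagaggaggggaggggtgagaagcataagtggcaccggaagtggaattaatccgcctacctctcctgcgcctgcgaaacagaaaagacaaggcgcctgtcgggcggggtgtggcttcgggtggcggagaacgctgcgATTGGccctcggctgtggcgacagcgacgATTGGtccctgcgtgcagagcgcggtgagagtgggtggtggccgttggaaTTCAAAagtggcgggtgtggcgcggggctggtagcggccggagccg
KIF11: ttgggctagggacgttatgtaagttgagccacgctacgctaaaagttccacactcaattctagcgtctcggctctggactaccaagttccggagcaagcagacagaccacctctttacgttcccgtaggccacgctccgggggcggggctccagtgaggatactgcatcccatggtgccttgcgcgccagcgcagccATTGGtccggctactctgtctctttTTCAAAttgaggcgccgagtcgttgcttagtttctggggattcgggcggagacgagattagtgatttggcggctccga
KIF23: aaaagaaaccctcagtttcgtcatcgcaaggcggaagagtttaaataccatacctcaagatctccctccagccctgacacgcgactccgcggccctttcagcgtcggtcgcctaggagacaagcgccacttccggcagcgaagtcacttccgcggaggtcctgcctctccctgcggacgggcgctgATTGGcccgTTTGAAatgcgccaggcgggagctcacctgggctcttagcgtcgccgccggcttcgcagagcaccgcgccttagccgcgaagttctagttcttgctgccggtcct
KIF20B: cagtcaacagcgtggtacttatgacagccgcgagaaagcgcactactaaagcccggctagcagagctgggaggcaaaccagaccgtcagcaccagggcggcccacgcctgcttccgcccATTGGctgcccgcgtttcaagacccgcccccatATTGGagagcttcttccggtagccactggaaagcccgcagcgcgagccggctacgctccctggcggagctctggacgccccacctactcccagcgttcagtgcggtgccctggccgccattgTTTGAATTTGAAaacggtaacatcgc
KIF5B: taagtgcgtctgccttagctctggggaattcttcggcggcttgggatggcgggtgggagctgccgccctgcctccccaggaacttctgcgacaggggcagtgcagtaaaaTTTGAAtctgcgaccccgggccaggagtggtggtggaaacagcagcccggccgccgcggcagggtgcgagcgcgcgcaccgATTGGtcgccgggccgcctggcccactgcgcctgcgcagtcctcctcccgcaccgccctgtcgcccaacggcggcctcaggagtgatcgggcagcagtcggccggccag

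KIF11 has a CCAAT box 53 bases before the start and CHR letters 28 bases before it, read on the opposite strand. KIF23 has a CCAAT box 64 bases before the start and CHR letters 55 bases before it, read on the gene's strand. The order of the elements is thus shared by the riser KIF11 and the faller KIF23, while their spacing and the strand of the CHR letters differ. KIFC1 has CCAAT boxes 75 and 46 bases before the start and a CHR at base 5, and KIF20B has CCAAT boxes 131 and 98 bases before the start and adjoining CHR letters at bases 25 and 31. In KIF5B the CHR letters lie 140 bases before the start, upstream of the CCAAT box at 59 bases. Windows were present for 34 of the 42 members, with more than 1 start for some genes. CHR letters on either strand were found in 11 of the 15 mitotic genes (75.0% of their windows), in 1 of 11 transport genes (KIF5B) and in 1 of 8 other genes (KIF24), beside 16.4% of all 35116 windows in the table. CCAAT, on either strand, was found in 11 mitotic genes (68.8% of their windows), 4 transport genes and 3 other genes, beside 34.6% of all windows. Both elements occurred together in 10 mitotic genes, beside 6.38% of all windows. By outcome, CHR letters occurred in 5 of the 6 mitotic risers, in 2 of the 2 fallers and in 3 of the 5 genes that did not pass. The erythroid GATA motif (AGATAA or TGATAA, either strand) was found in 0 mitotic, 2 transport and 1 other gene, beside 16.3% of all windows.

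**Figure D4:**
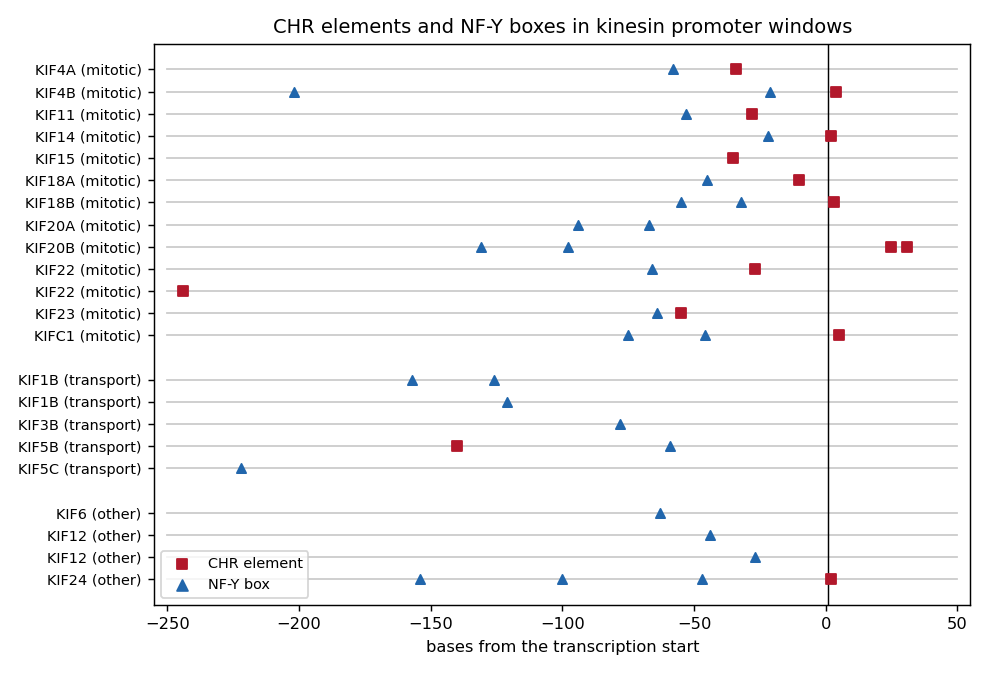
Positions of CHR letters (red squares) and CCAAT boxes (blue triangles, labelled NF-Y box) in the promoter windows of kinesins that have either, in bases from the annotated start. In the mitotic class the squares lie mostly near the start with a triangle upstream, and they are found in risers such as KIF11 and fallers such as KIF23 alike.

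Of 27 partners with which mitotic kinesins work, all tested, 17 rose and 1 fell, with a median log2 fold change of 0.29. The share called was 66.7%, beside 53.6% of all genes tested, of which 22.1% were higher and 31.5% lower. The 3 with the lowest adjusted p were NUSAP1, a spindle microtubule bundler (337 ± 16.8 TPM with MEN1 shRNA against 182 ± 6.36, log2 fold change 0.88, adjusted p = 3.6e-05), ANLN, the scaffold of the contractile ring (106 ± 5.53 against 52.7 ± 2.31, 0.99, 3.6e-05), and RACGAP1 (SD, n = 3). CENPE, a kinesin of the kinetochore under another name, measured 68.7 ± 3.39 against 55.1 ± 1.58 TPM (log2 fold change 0.31, adjusted p = 0.00393). MKI67, the marker of proliferating cells, measured 205, 182 and 192 TPM with MEN1 shRNA and 175, 186 and 179.5 TPM in controls, and the groups overlapped (95% interval -0.05 to 0.24, adjusted p = 0.237).

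The transcripts of the centralspindlin subunits KIF23 and RACGAP1 moved in opposite directions. RACGAP1, the partner of KIF23, measured 161, 169.8 and 191 TPM with MEN1 shRNA and 94.9, 105 and 95.1 TPM in controls (log2 fold change 0.81, SE 0.0797, adjusted p = 0.000145). The ratio of KIF23 to RACGAP1 TPM was 0.272, 0.231 and 0.210 with MEN1 shRNA and 0.727, 0.671 and 0.819 in controls, a difference of -1.64 on the log2 scale. This was 1 of 8 ratios chosen after the values were seen. Each was tested with a two-sided exact permutation test, whose smallest possible p with 3 libraries a group is 0.1, so that no ratio could pass the threshold. This ratio and 6 others, 7 of the 8, were at that smallest value (0.114 after adjustment over the 8). A ratio within a library does not depend on how libraries are scaled. Other midzone genes, likewise named after their values were seen, differed in direction: ECT2, which RACGAP1 recruits, rose (59.6 ± 1.41 against 41.3 ± 1.51 TPM, SD, n = 3, adjusted p = 0.000291), as did PRC1 (216 ± 30.5 against 118 ± 6.52, adjusted p = 0.000381). CEP55, the midbody protein of abscission, fell (13.2 ± 0.101 against 18.6 ± 1.99, adjusted p = 0.00429) and was the 1 partner of the list that did.

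Among 17 regulators of G2 and M phase transcription, 7 rose and 4 fell, with a median of 0.05. The share called was 64.7%, beside 53.6% of all genes tested. Without MEN1 shRNA replicate 2 the count was 6 in place of 11, with 5 higher and 1 lower. FOXM1, an activator of G2 and M phase genes, fell: it measured 44.5, 39.5 and 39.7 TPM with MEN1 shRNA and 65.2, 65.1 and 69.0 TPM in controls (log2 fold change -0.68, adjusted p = 0.000182). MYBL2, the activator that binds the CHR with the MuvB core, measured 230.2, 198 and 206 TPM against 259.6, 243 and 258 TPM. It fell by 0.26 (adjusted p = 0.0146), a call lost without MEN1 shRNA replicate 2 (adjusted p = 0.0509). The MYBL2 call held in 13 of 16 other settings. E2F7, a repressor of E2F targets, rose from 5.58 ± 0.368 to 17.0 ± 1.40 TPM (adjusted p = 4.1e-05), and E2F1 from 32.4 ± 2.27 to 59.9 ± 3.14 TPM (adjusted p = 9.5e-05; SD, n = 3).

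Among the transport kinesins, the genes that passed were all higher after the MEN1 hairpin. Of 15 genes 11 were tested: 6 rose (KIF5A, KIFC3, KIF5B, KIF3B, KIF13B and KIFC2), 0 fell, and 5 did not pass, with a median log2 fold change of 0.38. The share called was 54.5%, beside 53.6% of all genes tested, of which 22.1% were higher and 31.5% lower. The split over all genes, 3158 higher and 4499 lower, depended on scaling: it was 3758 and 3838 with median-of-ratios scaling and 3731 and 3863 with quantile normalization. Under these scalings 7 transport genes rose and 0 fell. Leaving out any 1 library left the count at 6.

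KIF5B, the widely expressed heavy chain of kinesin-1, which carries mitochondria and lysosomes toward the cell edge, was the most abundant transport kinesin. The gene (ENSG00000170759) lies on chromosome 10, positions 32009015 to 32056425, minus strand. It measured 102, 113 and 115 TPM with MEN1 shRNA and 61.8, 64.8 and 64.9 TPM in controls. The groups were far apart, with a log2 fold change of 0.77 (SE 0.0652, adjusted p = 8.4e-05). KIF5A, the heavy chain best known from neurons, lies on chromosome 12 at 57546026 to 57586633. It measured 22.1, 23.8 and 27.0 TPM against 11.3, 9.99 and 12.6 TPM in controls (log2 fold change 1.04, SE 0.112, adjusted p = 0.000215). This was the 1 transport kinesin past 2-fold, beside 1696 of all 14294 genes tested. KIF5A shares 1199 bases with DCTN2 on the opposite strand, a dynactin gene at 205 ± 22.0 TPM with MEN1 shRNA and 135 ± 3.62 TPM in controls (SD, n = 3). Whether strand was used in counting is not given in the sources used here, so reads from the shared stretch cannot be told apart. Of the neuron markers, STMN2 was at 0 and RBFOX3 and SNAP25 were at most 0.0519 TPM, whereas SYN1 rose from 1.23 ± 0.209 to 3.75 ± 0.274 TPM; the list summed to 3.56 to 4.09 TPM with MEN1 shRNA and 1.02 to 1.44 TPM in controls. Its part in the KIF5A value was not tested. KIF5C, the remaining kinesin-1 heavy chain, was at most 0.0337 TPM.

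The light chains and cargo linkers of kinesin-1 are considered next. Of 19 light chains, adaptors and linkers, 17 were tested, and 9 rose and 5 fell, with a median of 0.29. The share called was 82.4%, beside 53.6% of all genes tested (22.1% higher and 31.5% lower). KLC1, the light chain that joins the heavy chain to many cargoes, was higher (91.3 ± 10.4 against 56.4 ± 2.10 TPM, log2 fold change 0.68, adjusted p = 0.000538). KLC2 was higher by less (21.9 ± 1.57 against 17.7 ± 0.506 TPM, 0.29, adjusted p = 0.018), a call lost without MEN1 shRNA replicate 2 (0.0595) or 3 (0.063) or control replicate 2 (0.059). The ratio of KIF5B to KLC1 TPM was 1.21 ± 0.0649 with MEN1 shRNA and 1.13 ± 0.0397 in controls (exact permutation p = 0.2), and that of KIF5B to KLC2 was 5.03 ± 0.0513 and 3.61 ± 0.157 (exact permutation p = 0.1; SD, n = 3). KLC1 and KLC2 were named after their values were seen.

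The mitochondrial linkers split between paralogs. TRAK2, the adaptor between kinesin-1 and mitochondria with the lowest adjusted p of the list, measured 121, 155 and 146 TPM with MEN1 shRNA and 41.1, 41.7 and 42.7 TPM in controls (log2 fold change 1.72, SE 0.0925, adjusted p = 2.4e-05). RHOT1, the mitochondrial outer membrane GTPase that holds TRAK proteins, measured 75.4 ± 5.29 against 40.6 ± 1.45 TPM (log2 fold change 0.87, adjusted p = 7.3e-05). Their paralogs moved the other way, and were named after their values were seen. TRAK1 measured 10.6, 9.04 and 18.8 TPM against 20.8, 20.6 and 22.2 TPM (log2 fold change -0.75, adjusted p = 0.0263), and RHOT2 measured 55.4 ± 5.25 against 71.2 ± 5.17 TPM (log2 fold change -0.36, adjusted p = 0.0108; SD, n = 3). The TRAK1 call held in 1 of the 6 fits that left out a library, the one without MEN1 shRNA replicate 3. It was lost without MEN1 shRNA replicate 1 (0.0795) or 2 (0.0758) and without control replicate 1 (0.0615), 2 (0.0604) or 3 (0.0698). Over all 16 other settings the TRAK1 call held in 8.

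MAPK8IP1, a scaffold that binds kinesin-1 light chains, rose from 0.253, 0.376 and 0.209 TPM in controls to 3.29, 4.48 and 3.64 TPM (log2 fold change 1.90 on the TPM + 1 scale, adjusted p = 8.0e-05). PLEKHM2, a linker of kinesin-1 to lysosomes that was named after its values were seen, fell (35.9 ± 1.86 against 44.6 ± 4.07 TPM, SD, n = 3, adjusted p = 0.0182). The PLEKHM2 call was lost without MEN1 shRNA replicate 2 (0.0632) or control replicate 1 (0.0536) or 3 (0.0634). Over all 16 other settings it held in 9.

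**Figure D5:**
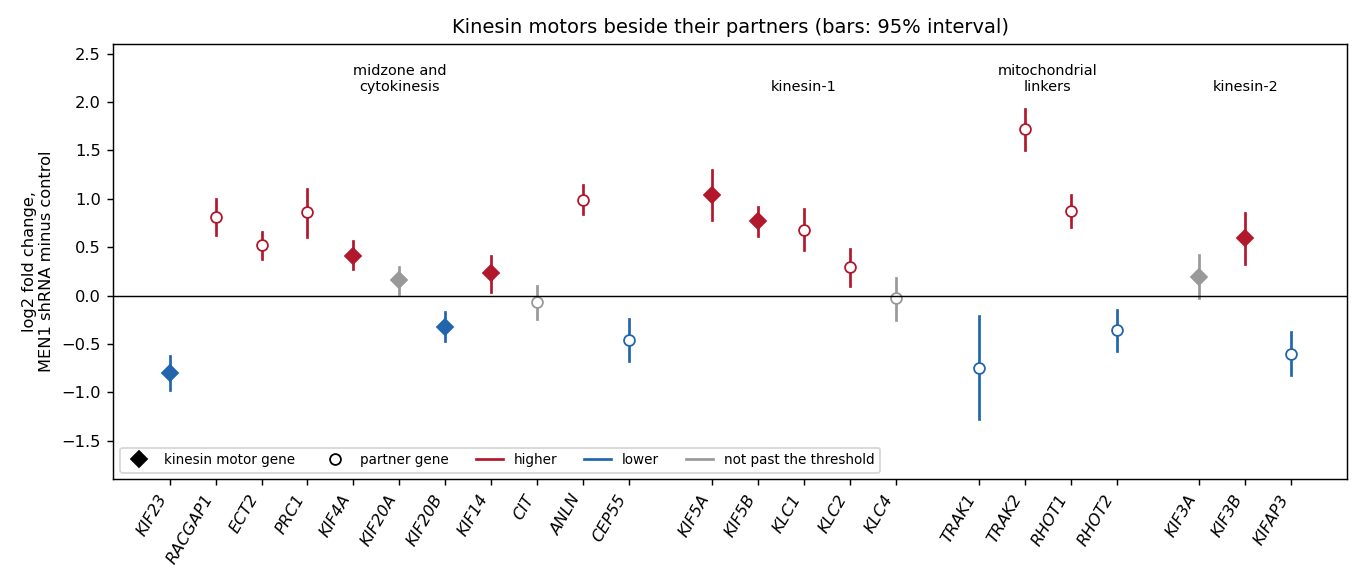
Log2 fold change (MEN1 shRNA minus control) of kinesin motors (diamonds) and their partners (circles) in 4 functional groups; bars are 95% intervals and red, blue and grey mark higher, lower and not past the threshold. KIF23 (-0.80) lies opposite RACGAP1 (0.81), TRAK1 (-0.75) opposite TRAK2 (1.72), and KIFAP3 (-0.60) opposite KIF3B (0.59).

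Kinesin-2, which moves cargo along cytoplasmic and ciliary microtubules, is a trimer of KIF3A, KIF3B and the accessory subunit KIFAP3. KIF3B, on chromosome 20 at 32277651 to 32335011, measured 22.5, 29.1 and 28.3 TPM with MEN1 shRNA and 17.2, 16.2 and 18.4 TPM in controls, with replicate 1 nearest to the controls. KIF3B rose by 0.59 (SE 0.111, adjusted p = 0.00297). KIF3A measured 7.59, 6.83 and 7.71 TPM against 6.24, 6.29 and 6.47 TPM; its libraries did not overlap but the adjusted p was 0.136 (95% interval -0.03 to 0.42). KIFAP3, named after its values were seen, fell from 20.3, 24.0 and 23.1 TPM to 13.7, 13.9 and 15.7 TPM (log2 fold change -0.60, SE 0.0945, adjusted p = 0.00122). The ratio of KIFAP3 to KIF3B was 0.547 ± 0.0675 with MEN1 shRNA and 1.31 ± 0.156 in controls (SD, n = 3, exact permutation p = 0.1, the smallest possible). KIF3C, an alternative partner of KIF3A, was under 1 TPM in 5 libraries and 2.14 TPM in control replicate 3, and was not tested.

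Of the minus-end-directed transport motors, KIFC3, which works at adherens junctions and with peripheral vesicles, measured 19.9, 25.7 and 27.0 TPM with MEN1 shRNA and 17.4, 12.3 and 11.3 TPM in controls (log2 fold change 0.79, SE 0.175, adjusted p = 0.00633). The spread was wide, and the libraries nearest to the other group were MEN1 shRNA replicate 1 and control replicate 1. KIFC2 measured 28.9, 27.5 and 27.8 TPM against 19.8, 20.5 and 24.0 TPM (log2 fold change 0.38, SE 0.0878, adjusted p = 0.00834). Its call was lost when the deposited gene coverage was used in place of TPM (adjusted p = 0.115). The 4 epithelial markers had a lower summed level after the MEN1 hairpin: the list summed to 214 to 232 TPM with MEN1 shRNA and 335 to 351 TPM in controls, with EPCAM lower (239 ± 7.46 TPM in controls and 132 ± 9.51 TPM with MEN1 shRNA; SD, n = 3). CDH1 was 99.2 ± 3.80 and 88.8 ± 0.988 TPM (adjusted p = 0.0418, past the threshold in 3 of 16 other settings), KRT18 did not pass (log2 fold change 0.34, adjusted p = 0.187), and KRT8 was under 1 TPM in every library. The part of this list in the KIFC3 value was not tested.

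The kinesin-3 motors carry vesicles and endosomes. KIF13B measured 14.3, 15.3 and 18.4 TPM with MEN1 shRNA and 11.5, 12.2 and 10.7 TPM in controls, and rose by 0.44 (SE 0.111, adjusted p = 0.0121). Its paralog KIF13A, which carries recycling endosomes, measured 55.7, 46.5 and 47.3 TPM against 50.7, 56.4 and 51.9 TPM and did not pass (interval -0.29 to 0.11, adjusted p = 0.412). KIF1C, a carrier of secretory vesicles, measured 18, 19.0 and 21.0 TPM against 18.4, 19.2 and 17.4 TPM (interval -0.13 to 0.27). The groups overlapped for both.

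KIF1B, a carrier of mitochondria and vesicle precursors, measured 7.40, 7.91 and 8.53 TPM with MEN1 shRNA and 7.40, 8.29 and 8.60 TPM in controls (interval -0.26 to 0.22). KIF16B, which moves early endosomes, measured 9.20, 10.2 and 9.75 TPM against 8.90, 11.3 and 8.96 TPM (interval -0.26 to 0.27). For both, the groups overlapped and the sign of the estimate changed between settings. KIF1A and KIF17, motors of neurons and cilia, were at most 0.187 and 0.0632 TPM.

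Among the other kinesins, KIF26A had the largest increase of any member tested. KIF26A is an atypical kinesin that binds microtubules without working as an ATPase motor. The gene (ENSG00000066735) lies on chromosome 14, positions 104136454 to 104180894, plus strand. It measured 118, 164 and 162 TPM with MEN1 shRNA and 65.4, 53.5 and 60.1 TPM in controls. Replicate 1 was the lowest of the MEN1 shRNA libraries and still far above the controls, and the gene rose by 1.28 on the log2 scale (SE 0.138, adjusted p = 0.000214). By mean TPM it moved from rank 9 to rank 3 among the kinesins. An unnamed gene on the opposite strand, ENSG00000289840, shares 571 bases with it and measured 8.84 ± 1.22 against 3.74 ± 0.686 TPM (SD, n = 3).

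KIF21B, which slows microtubule growth and is best known from neurons and lymphocytes, had the largest decrease. It lies on chromosome 1 at 200969390 to 201023714 and measured 2.69, 1.81 and 2.2 TPM with MEN1 shRNA against 6.62, 4.83 and 7.06 TPM in controls, with no overlap (log2 fold change -1.14, SE 0.17, adjusted p = 0.000965). Of the T cell markers, CD3D rose from 0.397 ± 0.356 to 4.40 ± 1.24 TPM, opposite in direction to KIF21B (SD, n = 3), and CD3E and CD2 were under 1 TPM in every library. KIF27, a relative of the Hedgehog pathway kinesin KIF7, measured 1.39, 1.49 and 1.67 TPM against 2.34, 2.05 and 2.44 TPM (log2 fold change -0.38, SE 0.136, adjusted p = 0.0466). That call was lost whichever library was left out: without MEN1 shRNA replicate 1, 2 or 3 the adjusted p was 0.0981, 0.106 or 0.0648, and without control replicate 1, 2 or 3 it was 0.111, 0.065 or 0.13. KIF27 passed in 2 of the 15 other settings that tested it.

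KIF21A, a paralog of KIF21B that also restrains microtubule growth, measured 23.5, 20.8 and 23.1 TPM with MEN1 shRNA and 23.9, 25.6 and 25.8 TPM in controls. All MEN1 shRNA libraries were lower, but the adjusted p was 0.14 (interval -0.33 to 0.03). KIF24, a centriolar kinesin that restrains cilium assembly, measured 8.95, 8.26 and 9.14 TPM against 9.26, 10.2 and 8.79 TPM, with overlap (interval -0.32 to 0.14). KIF9, a kinesin of motile cilia, measured 5.67, 4.87 and 6.84 TPM against 6.65, 5.18 and 4.55 TPM, also with overlap (interval -0.31 to 0.46). The defining genes of ciliated cells, FOXJ1 and DNAH5, were at 0 in every library, and the list of 4 summed to at most 0.0815 TPM.

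The 12 members that were not tested had at most 2.14 TPM in any library. They were KIF2B and KIF4B of the mitotic class, KIF1A, KIF3C, KIF5C and KIF17 of the transport class, and KIF6, KIF7, KIF12, KIF19, KIF25 and KIF26B of the others, and 3 of them (KIF2B, KIF12 and KIF25) were listed at 0 throughout. Of the 30 tested members, 11 overlap another row with a mean of at least 1 TPM. Of these 11, 5 were called (KIF4A, KIFC1, KIF5A, KIFC2 and KIF26A), beside 17 of all 30 tested kinesins and 53.6% of all genes tested.

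Cytoplasmic dynein, the motor that moves cargo opposite to most kinesins, and its cofactor dynactin were also listed. Of 28 genes 26 were tested, and 14 rose and 3 fell, with a median of 0.31. The share called was 65.4%, beside 53.6% of all genes tested (22.1% higher and 31.5% lower). The light intermediate chain DYNC1LI2 measured 75.0 ± 5.66 TPM with MEN1 shRNA and 37.9 ± 1.63 TPM in controls (adjusted p = 6.1e-05). The dynactin subunits DCTN6 and DCTN5, which sit together at its pointed end, moved apart, DCTN6 rising to 136 ± 8.66 from 78.2 ± 1.17 TPM (adjusted p = 6.8e-05) and DCTN5 falling to 14.7 ± 0.802 from 26.9 ± 0.600 TPM (adjusted p = 0.000102; SD, n = 3).

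Of 15 tubulin genes, the track on which kinesins walk, 14 were tested, and 4 rose and 3 fell, with a median of 0.04. The share called, 50.0%, was close to the 53.6% of all genes tested. TUBB1, the beta tubulin of platelets and their precursors, rose from 1.67, 2.26 and 1.66 TPM to 16.5, 17.7 and 20.6 TPM (log2 fold change 2.75, adjusted p = 1.7e-05). The megakaryocyte markers PF4 and PPBP were at 0 in every library, and ITGA2B fell from 33.8 ± 2.44 to 18.6 ± 2.35 TPM. TUBA1A rose from 118 ± 16.2 to 278 ± 65.4 TPM (adjusted p = 0.000876). TUBB2A fell from 80.6 ± 4.86 to 32.1 ± 2.44 TPM (adjusted p = 2.9e-05; SD, n = 3). Tubulin genes are close copies of each other, so reads could have been divided among them.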

How the data were processed

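RNA was poly(A)-selected and made into libraries with a directional kit, per the labels' protocols. Per the submitters' processing notes, the authors used FastQC, Trimmomatic, STAR 2.7.1a, Picard 2.20.4 and StringTie 2.0.4 with hg38; the annotation and the counting's strand setting: not given in the sources used here. The deposited gene table of each library gives coverage, FPKM and TPM for 62754 rows, per the file headers. Depth was inferred from coverage and FPKM, assuming 151-base read pairs. In control replicate 2, 3 values just below 0 were set to 0.

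Groups were taken from the sample titles, which number 3 biological replicates each. Genes with a TPM of at least 1 in at least 3 libraries were tested with limma 3.58.1 (R 4.3.3) on log2(TPM + 1) with a trended variance, and p-values were adjusted over all 14294 genes by the Benjamini-Hochberg method. Fold changes on this scale understate the change of low genes. Intervals are 95%. The p-values weigh the difference between the groups against the spread between libraries within a group. All libraries come from 1 cell line, and only 1 MEN1 hairpin was used.

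The kinesin classes, partner lists and alternatives were chosen with earlier results of these data known. Values are given for every tested kinesin past the threshold or with a mean of 5 TPM in a group, and outside the kinesins for MEN1, CENPE, MKI67, FOXM1, MYBL2 and up to 3 called genes of each partner list with the lowest adjusted p; further genes were chosen after their values were seen. Markers of T cells, B cells, monocytes, megakaryocytes, mast cells, neurons, ciliated cells and epithelium were also read. B cell and monocyte markers summed to at most 0.885 and 0.738 TPM, and mast cell markers to 421 to 504 TPM with MEN1 shRNA and 576 to 747 TPM in controls, nearly all TPSAB1. Promoters came from RefSeq windows on GRCh38.p14, matched by symbol.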

Additional observations from a re-analysis of the deposited data

How the results depend on the processing

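Each count and each kinesin's fold change was recomputed under 16 other settings: a pseudocount of 0.1, no filter, a mean of at least 5 TPM, FPKM, 3 other scalings, a replicate block, a limma test for changes beyond 0.5 on the log2 scale (treat), leaving out each library, and gene coverage scaled to depth, which was chosen after seeing the data. Of 169 counts and sums, 158 were classed as close to the reported value and 11 as moved. Counts classed as close could still differ. With no filter 8 regulators were called in place of 11, and with FPKM 2 other kinesins in place of 3. Of 17 called kinesins, 14 stayed past the threshold in every setting that tested them except treat; the exceptions were KIF14, KIFC2 and KIF27. Treat left 2126 of all genes, 1 mitotic kinesin (KIF23), 2 transport kinesins, 4 mitotic partners, 2 regulators, 3 adaptors, 6 dynein and dynactin genes and 3 tubulins. With a mean of at least 5 TPM, 1 other kinesin was called, since KIF21B and KIF27 were no longer tested. Leaving out single libraries gave 6 to 10 regulators, 7 to 8 mitotic, 6 transport and 2 other kinesins, and 6577 to 7542 genes in all. The mitotic sum ratio became 1.23 without globin and mitochondrial genes. KIF20A passed in 7 settings, and KIF3A passed under median-of-ratios (adjusted p = 0.0438) and quantile scaling (0.028). With no filter, KIF7 and KIF19, both under 1 TPM in every library, also passed. The cause of these shifts was not tested.

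Signs changed for KIF1B, KIF13A, KIF16B, KIF9 and KIF24, none of which passed. KIF1B was 0.00493 with FPKM, 0.0552 with median-of-ratios scaling, 0.0861 with quantile scaling and 0.0368 without globin and mitochondrial genes, and -0.0794 to 0.0211 when single libraries were left out. KIF13A was 0.0327 and KIF9 -0.0261 with coverage, and KIF24 was 0.0239 with quantile scaling. Leaving out single libraries gave -0.046 to 0.11 for KIF16B and -0.0333 to 0.203 for KIF9.

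The values showed no sign of pairing by replicate number: deviations from the group means correlated at 0.017, -0.027 and -0.012. Of 6 libraries, 2 correlated best with their own number. These values cannot settle whether the replicates were prepared in pairs. With a replicate block 7012 genes, 7 mitotic, 6 transport and 2 other kinesins passed.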
